A study of Mus musculus with 4 samples.

Results

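The cells described here are fibroblasts of the injured mouse hindlimb whose mitochondrial transcripts made up an ordinary share of their RNA. They were chosen from raw counts of unique molecular identifiers (UMIs), 1 UMI standing for 1 captured RNA molecule, in 2 single-cell libraries of injured tissue. A barcode had to hold at least 200 genes, 0.5 to 20% mitochondrial UMIs, and at least 1% of its UMIs in Col1a1, Col1a2, Col3a1 and Dcn together. It also had to hold under 3 UMIs of Ptprc and Tyrobp (leukocyte genes), under 3 of Pecam1 and Cdh5 (endothelial genes), under 3 of Rgs5, Myh11 and Notch3 (pericyte and smooth muscle genes), under 5 of Krt5 and Krt14 (keratinocyte genes) and under 2 of Mki67, Top2a, Cenpf, Birc5 and Ube2c (cycling genes). This left 154 of the 2581 deposited barcodes, or of the 1217 in the injured libraries: 28 cells of Ddr2 slie/slie mice and 126 cells of littermate controls.

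All mice were burned on the back, over 30% of the body surface, and had the left Achilles tendon cut, and hindlimb tissue was taken at day 7. The slie/slie mice carry slie, a spontaneous deletion in Ddr2, on both chromosomes. The controls are littermates, tagged WT in the sample titles, and their genotype is not given further. The labels give 2 mice per genotype, all of them burned, and 1 library per genotype and limb state, and do not say which limb served as uninjured or how the mice were combined. With 1 library per group nothing here has a replicate check: folds and intervals compare libraries, all intervals are exact at 95%, and they cover counting error only.

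Fibroblasts build and remodel the collagen scaffold of tendon, fascia and muscle sheath. After a wound they take up a repair state in which they secrete fibrillar collagens and matricellular proteins, and some assemble smooth muscle actin into contractile fibres and are then called myofibroblasts. DDR2, the product of Ddr2, is a receptor tyrosine kinase that binds fibrillar collagen and is found mainly on mesenchymal cells. Burn with tenotomy is used as a model of heterotopic ossification, in which cartilage and bone form in injured soft tissue.

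The slie/slie members held 163571 UMIs in all, with 358 to 76827 per cell and a median of 1132.5, and the control members 814333, with 501 to 42395 and a median of 2375. A single slie/slie cell gave 47.0% of that population's UMIs, against 5.21% for the deepest control cell, so values from summed slie/slie counts lean on that cell. The cell nearest the lower mitochondrial limit was at 0.595% in slie/slie and 0.512% in control, with the nearest excluded barcodes at 0.385% and 0.434%, and for the collagen and Dcn share the values inside were 1.00% and 1.31% and those outside 0.927% and 0.710%. Only 1 barcode sequence was shared between libraries, and no member held it.

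The members' fibroblast label was checked on 3 genes that did not choose them. Pdgfra, a growth factor receptor of mesenchymal cells, had a UMI in 11 of 28 slie/slie members (39.3%, 21.5 to 59.4%) and in 63 of 126 control members (50.0%, 41.0 to 59.0%). Prrx1, a limb mesenchyme transcription factor, had one in 9 slie/slie and 56 control members, and Lum, a collagen-binding proteoglycan, in 15 and 94. In leukocyte-gated barcodes of the same libraries, of greater median depth (2413 UMIs in 17 slie/slie and 3507 in 113 control barcodes), Pdgfra was found in none of either library, Prrx1 in none and 1, and Lum in none and 3. The leukocyte gate, here and below, took barcodes with at least 3 UMIs of Ptprc and Tyrobp and a collagen and Dcn share under 1%. It thus left out barcodes rich in fibroblast RNA, which in part fixed the low values there. The 3 genes were present in members of both libraries, and the contrast with leukocyte-gated barcodes is a description.

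Markers of other cell types were low in the members. None of the myofibre, T or NK cell, mast cell and adipocyte markers had a UMI in the slie/slie members, where the interval for 0 counts reaches 22.6 CPM (counts per 1000000 UMIs) for each list. Macrophage markers summed to 36.7 CPM in slie/slie and 56.5 CPM in control members, with C1qa, C1qb and C1qc at 0 in slie/slie, and neutrophil markers to 36.7 CPM and 157 CPM. Hemoglobin and other erythroid genes stood at 416 CPM in slie/slie and 436 CPM in control members, and Schwann cell genes at 159 CPM and 155 CPM. Tendon cell markers, among them Thbs4, Scx and Tnmd, reached 287 CPM in slie/slie and 405 CPM in control members.

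Matrix genes were abundant in the members. Col1a1 made up 3.58% of UMIs in slie/slie and 3.25% in control members and Col1a2 1.44% and 1.87%, as the choice of cells requires. Sparc, a collagen-binding matricellular protein that the choice did not use, made up 1.25% in slie/slie and 1.05% in control members, and Postn, the matricellular protein periostin of healing tissue, 0.584% and 0.491%. Postn was found in 26 of 28 slie/slie and 116 of 126 control members, at a median of 52.7 and 42.0 UMIs per 10000, with the highest cells at 202 and 348.

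To set single cells side by side, each was thinned to 1000 UMIs, which kept 15 slie/slie and 94 control members. The 20 matricellular and provisional matrix genes then had a lowest, median and highest of 8, 37 and 53 UMIs per slie/slie cell and 4, 33 and 72 per control cell, so every one of these cells held some of their RNA. The 20 contractile and focal adhesion genes had 4, 9 and 35 UMIs per slie/slie cell and 2, 8 and 35 per control cell. The 13 genes of the lubricin and hyaluronan matrix were uneven, with 0, 0 and 7 UMIs per slie/slie cell and 0, 1 and 13 per control cell. In 10 of 15 slie/slie and 42 of 94 control cells they had no UMI at this depth.

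**Figure D1:**
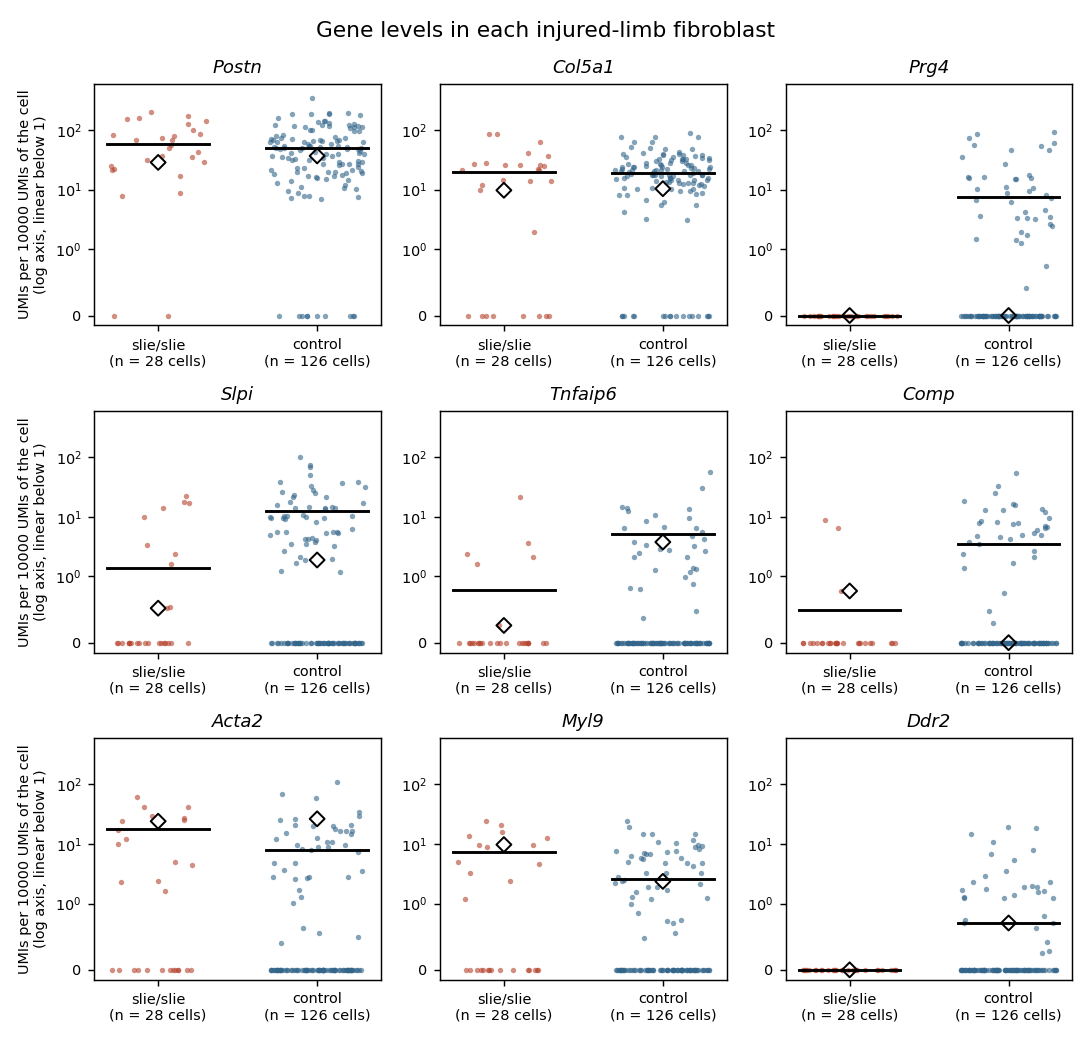
UMIs per 10000 of 9 genes in each member, 1 point per cell, on an axis that is linear near 0 and logarithmic above it, with slie/slie members left of control members. The black line is the level of the summed UMIs and the diamond is the deepest cell of each library. Postn is spread over both groups, with highest cells of 202 in slie/slie and 348 in control, and Prg4 is at 0 in all 28 slie/slie cells.

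The injury contrast could be made within slie/slie mice, where the same gates kept 55 cells of the uninjured limb (416797 UMIs, median 7004 per cell). In control mice the uninjured library gave 4 cells and was not compared. Of 1707 genes with at least 50 UMIs over both populations, 30.3% differed at least 2-fold: 13.8% were at least 2-fold higher in the injured-limb members and 16.5% at least 2-fold lower, and "higher", "lower", "rose" and "fell" refer from here to genes past 2-fold. A count of 1 was added to each sum before a ratio was formed. The median over all measured genes was 0.05 on the log2 scale, and -0.17 without the deepest cell of each population, when 160 of 1384 measured genes were higher and 309 lower. Myofibre markers had no UMI in the injured members and were at 554 CPM in the uninjured cells, with 7 of 7 detected. Schwann cell markers were at 159 CPM in injured members and 485 CPM in uninjured cells, macrophage markers at 36.7 CPM and 122 CPM, neutrophil markers at 36.7 CPM and 144 CPM, and dendritic cell markers at 6.11 CPM and 154 CPM. Their part in the results was not tested.

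The contractile program was higher in the injured-limb members. Acta2, smooth muscle actin, stood at 1791 CPM in 15 of 28 injured members, against 24.0 CPM in 7 of 55 uninjured cells, a ratio of 68.1 (40.0 to 157). Tagln (transgelin) was 46.2-fold higher (28.5 to 94.4), and Myl9, the regulatory myosin light chain of smooth muscle, was at 746 CPM in injured members and 43.2 CPM in uninjured cells, a ratio of 16.5 (10.5 to 30.1). Cnn2, a calponin, was 17.3-fold and Tpm1, a tropomyosin, 8.16-fold higher. Of the list's 14 measured genes, 12 rose and none fell, with a median of 1.95 on the log2 scale. The log2 ratio of Acta2 was 5.49 and that of Myl9 3.52 without the deepest cell of each population, while that of the cytoplasmic actin Actg1, 1.05 in the sums, was 0.20 without it and -0.07 in cells thinned to 1000 UMIs.

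The contractile genes are known targets of serum response factor, which binds the CArG box, and the promoters of Myl9 and Cnn2 are shown because these 2 genes hold the box and stayed past 2-fold after injury without the deepest cell of each population, at log2 ratios of 3.52 and 3.60. The 250 bases before the transcription start were available in the RefSeq table for 16 of the 20 genes of the list, on build GRCm38.p6 (mm10). A CArG box, searched for as its consensus, which is its own reverse complement and so covers both strands, was found in 4 of them: Myl9, Cnn2, Actg1 and Vcl. Actg1 did not stay past 2-fold without the deepest cell and Vcl had too few UMIs to be measured in the injury contrast, so their windows are not printed. The box was found in 1.47% of all 32851 windows of that length. The sequences run 5′ to 3′ on the gene's strand and the capitals mark the box. The Myl9 window is chr2:156775214-156775463 on the plus strand, with the box starting 161 bases before the start site. The Cnn2 window is chr10:79988350-79988599 on the plus strand, with the box 56 bases before it. A match of letters is a description and was not tested as a binding site.
Myl9: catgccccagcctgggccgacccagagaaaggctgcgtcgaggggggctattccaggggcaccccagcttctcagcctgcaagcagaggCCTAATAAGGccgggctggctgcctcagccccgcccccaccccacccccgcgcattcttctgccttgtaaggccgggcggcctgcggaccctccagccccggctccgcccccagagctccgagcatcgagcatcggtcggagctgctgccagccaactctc
Cnn2: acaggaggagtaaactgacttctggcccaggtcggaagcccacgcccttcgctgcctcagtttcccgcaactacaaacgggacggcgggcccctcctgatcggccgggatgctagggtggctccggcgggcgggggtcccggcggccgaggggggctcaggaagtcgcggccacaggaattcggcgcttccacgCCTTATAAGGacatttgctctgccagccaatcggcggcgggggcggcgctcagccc

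The matricellular genes formed the second group that was higher after injury. Postn was at 5845 CPM in injured members and 214 CPM in uninjured cells, 27.1-fold higher (22.0 to 34.4). Tnc, tenascin C of provisional matrix, had 234 UMIs in 18 injured members and 1 UMI in the uninjured cells, a ratio of 299 (106 to 2.37e4). Of the 234 UMIs, 37, 37 and 41 lay in the alike cells described below with Cxcl5. Thbs1 (thrombospondin 1) was 20.2-fold, Cthrc1, a protein of activated fibroblasts, 13.6-fold, and Fn1 (fibronectin) 4.22-fold higher. Sparc differed little, at 12539 CPM in injured members and 12325 CPM in uninjured cells. In this list 12 of 16 measured genes rose and none fell.

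Most fibrillar collagens measured, several other collagens and most of the folding and crosslinking enzymes measured were higher as well. Of 4 measured fibrillar collagens 3 rose and none fell, and of 10 other collagens 4 rose and 3 fell. Col12a1, a fibril-associated collagen, was 55.6-fold higher (32.5 to 129), Col11a1 55.2-fold (27.5 to 206) and Col5a1 4.14-fold (3.47 to 4.98). The 3 that fell are collagens of basement membranes: Col4a1 had 5 UMIs in injured members and 171 in uninjured cells, Col4a2 had 9 and 85, and Col15a1 had 2 and 84. The log2 ratio of Col4a2, -1.76, was -0.92 without the deepest cell of each population. Plod2, a lysyl hydroxylase, was 33.8-fold higher (14.3 to 221) and Lox (lysyl oxidase) 8.15-fold (5.87 to 11.9). Of 14 measured folding and crosslinking genes 8 rose and none fell, with a median of 1.49 on the log2 scale. That median was -0.32 in cells thinned to 1000 UMIs, where few of these genes could be measured.

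Further genes at 0 in the uninjured cells give lower bounds, set against 3 counts over the population. Cxcl5, a neutrophil-attracting chemokine, had 214 UMIs in 9 injured members, 192 of them in 3 cells, and was at least 182-fold higher. These 3 cells were alike in other genes, with Col1a1 at 443, 431 and 415 UMIs, Tnc at 37, 37 and 41, and Pdgfra at 6 in each. They also held 28, 35 and 38 of the 239 Col12a1 UMIs of the injured members. Whether their barcodes stand for separate cells was not tested. Ddah1, which degrades a nitric oxide synthase inhibitor, was at least 102-fold higher, Lrrc15, a membrane protein of activated fibroblasts, at least 49.3-fold, and Fbn2, a fibrillin, at least 45.9-fold. Ankrd1 had 156 UMIs in injured members and none in uninjured cells, but a single cell held 154 of them. H19, an imprinted long noncoding RNA of fetal growth, was 83.8-fold higher (45.6 to 240), and Runx1, a transcription factor, 22.9-fold (11.9 to 66.6). Hif1a, the oxygen-regulated transcription factor, was 6.81-fold and the secreted Wnt inhibitor Sfrp1 5.88-fold higher.

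The genes of resting and progenitor-type fibroblasts were lower. Clec3b (tetranectin) had 2 UMIs in injured members, against 1663 in 51 of 55 uninjured cells, and was 218-fold lower (90.2 to 2.70e3). Gsn, the actin-severing gelsolin, was at 220 CPM in injured members and 26723 CPM in uninjured cells, 118-fold lower (87.6 to 173). Igfbp6 was 90.7-fold lower, Ly6c1 31.1-fold and Cd34 12.3-fold. In the progenitor-type list 9 of 10 measured genes fell and none rose, with a median of -3.51 on the log2 scale. Pi16, a marker of perivascular and adventitial fibroblasts, fell 4.21-fold (2.70 to 7.77), and with cells weighted equally its log2 ratio was -0.28.

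Of 7 measured complement genes 6 were lower in the injured members. C3, the central complement component, had 4 UMIs in injured members and 208 in uninjured cells, 16.4-fold lower (7.85 to 75.6). Cfd, a complement protease, was at 0 in injured members and at least 20.0-fold lower. Apoe (apolipoprotein E) was at 0 in injured members, against 823 UMIs in 47 of 55 uninjured cells, and at least 108-fold lower, and Apod fell 44.1-fold. Ccl11, an eosinophil-attracting chemokine, was at least 27.6-fold lower. Prg4, the joint and tendon lubricant lubricin, was at 0 in injured members and had 109 UMIs in 9 uninjured cells, 83 of them in 1 cell.

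None of the 34 measured nuclear genes of oxidative phosphorylation passed 2-fold after injury, and their median log2 ratio was 0.01. Of 7 measured glycolysis and hypoxia genes 5 rose and none fell, with a median of 1.23, and of 17 genes of endoplasmic reticulum stress and secretion 9 rose and none fell, with a median of 1.02. Without the deepest cell of each population these medians were 0.46 and 0.85, and without the 3 deepest 0.26 and 0.85. The 3 genes that checked the fibroblast label did not pass 2-fold. Pdgfra was at 190 CPM in injured members and 377 CPM in uninjured cells (ratio 0.516, 0.331 to 0.743), Prrx1 at 171 CPM and 266 CPM, and Lum at 1058 CPM and 1298 CPM.

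**Figure D2:**
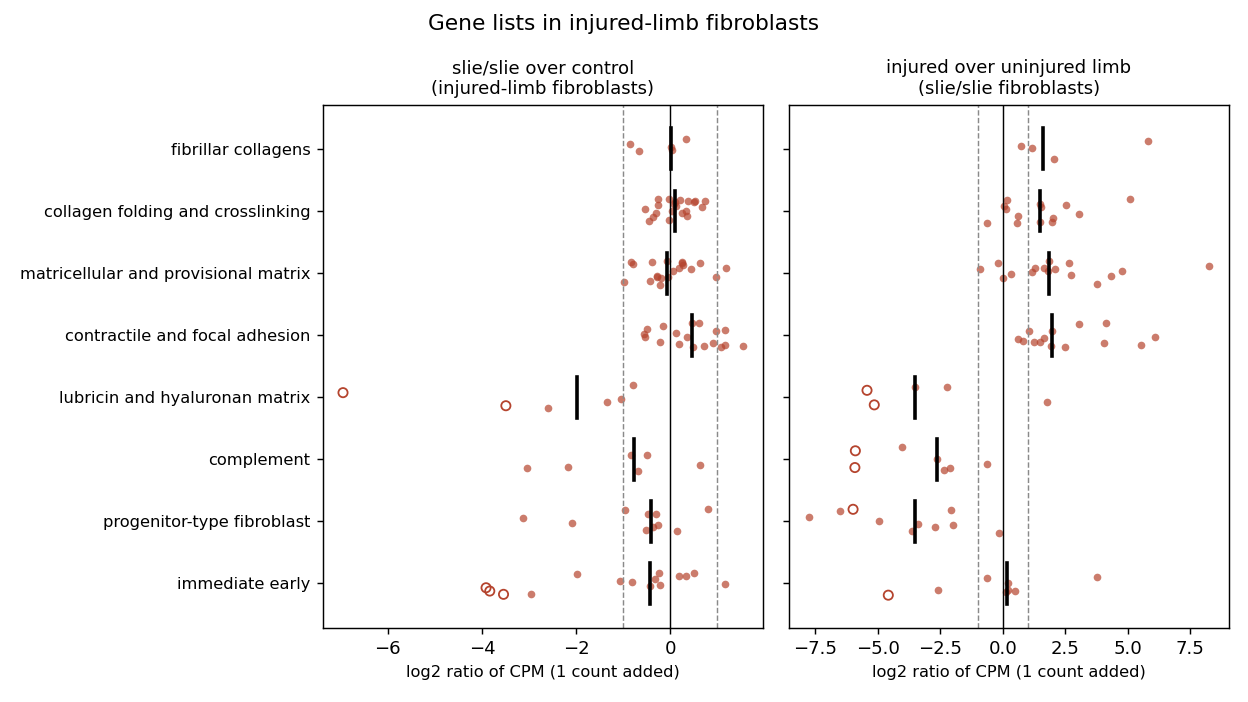
Log2 ratios of the genes of 8 lists, slie/slie over control members on the left and injured members over uninjured cells of slie/slie on the right, 1 dot per gene with at least 50 UMIs over both populations. Open circles are genes with 0 UMIs in one population, placed by the added count and not as a bound, black bars are list medians, and dashed lines mark 2-fold. In the injury contrast the contractile list lies around 1.95 and the progenitor-type list around -3.51.

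The genotype comparison of injured-limb members, slie/slie against control, set 28 cells of mice with the Ddr2 deletion against 126 of their littermates. The slie/slie members are the same cells as in the injury contrast, so a gene low in them is low in both. Of 2913 genes with at least 50 UMIs, 9.44% differed at least 2-fold: 3.12% were higher in slie/slie members and 6.32% lower. The median over all measured genes was 0.06 on the log2 scale. Since the control sum is the larger, a gene found in it alone passes the UMI limit only because it differs, so counts of lower genes describe the genes measured and no more. Ddr2 itself had 0 UMIs in slie/slie members (0 of 28 cells, which at 3 counts allows a share of up to 10.7% of cells with a UMI and does not limit the cells that express the gene), against 57 UMIs in 31 of 126 control members, and was at least 3.82-fold lower. The labels do not say which part of the gene the deletion removes.

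Genes of the lubricin and hyaluronan matrix, which coats gliding surfaces and loosens inflamed tissue, were among those lower in slie/slie members. Prg4 had 0 UMIs in slie/slie members and 616 UMIs in 42 of 126 control members, where it reached 756 CPM, and was at least 41.2-fold lower. The control cell richest in Prg4 held 116 of these UMIs, so the control signal was not that of 1 cell. In cells thinned to 1000 UMIs, Prg4 was found in 0 of 15 slie/slie members (0 to 21.8%) and 18 of 94 control members (19.1%, 11.8 to 28.6%), and these intervals overlapped. Leukocyte-gated barcodes of both libraries held no Prg4. Of the other 2 synovial lining markers, Htra4 had 1 UMI in control members and Tspan15 none in either library. The slie/slie injured library did hold Prg4 elsewhere: its 8 cycling fibroblasts had 122 UMIs, 95 of them in 1 cell.

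Hyaluronan genes went the same way in the sums. Tnfaip6, which crosslinks hyaluronan during inflammation, had 13 UMIs in 6 slie/slie and 422 UMIs in 34 control members, a ratio of 0.165 (0.0810 to 0.265). Of the 422 UMIs, 139 and 108 lay in single cells. Has2, the main hyaluronan synthase of mesenchyme, was at 257 CPM in slie/slie and 669 CPM in control members, a ratio of 0.392 (0.273 to 0.526). In thinned cells its log2 ratio was 0.68, and Has2 was found in 5 of 15 slie/slie and 29 of 94 control cells, so the direction for Has2 was not stable. Has1 had 0 UMIs in slie/slie members and 55 in control members, 40 of them in 1 cell. Of 6 measured genes of the list 5 fell, with a median log2 ratio of -1.98, or -1.62 with the genes at 0 placed at their bound and -0.43 without the 3 deepest cells of each population.

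Several secreted proteins of inflamed or damaged connective tissue were also lower in slie/slie members. Slpi, a secreted inhibitor of leukocyte proteases, was at 141 CPM in 10 slie/slie and 1275 CPM in 58 control members, a ratio of 0.115 (0.0696 to 0.166). Control members with a Prg4 UMI held 935 Slpi UMIs and those without 103, and single cells held 266, 187 and 142. Leukocyte-gated barcodes of the control held Slpi too, in 29.2% of them and at 415 CPM, and neutrophil markers in the members were at 36.7 CPM in slie/slie and 157 CPM in control. Mmp3, the matrix protease stromelysin, had 6 UMIs in 2 slie/slie and 325 UMIs in 21 control members, a ratio of 0.107 (0.0335 to 0.202), and none in the leukocyte-gated barcodes of either library. Of the 325 UMIs, 121 lay in a single cell. Spp1 (osteopontin) was at 116 CPM in slie/slie and 1079 CPM in control members, a ratio of 0.113 (0.0645 to 0.169), while leukocyte-gated barcodes held 2286 CPM and 4673 CPM. Control members with a Prg4 UMI held 507 Spp1 UMIs and those without 372, and single cells held 229, 175 and 159. The part of leukocyte RNA in the Slpi and Spp1 values was not tested.

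The complement genes C3 and C4b and the cartilage matrix genes Comp and Acan were lower in slie/slie members. They were 2 of 6 measured complement genes and 2 of 5 measured chondrogenic genes, no other member of either list passed 2-fold, and the medians were -0.76 and -0.75 on the log2 scale. C3 had 4 UMIs in slie/slie and 204 in control members, a ratio of 0.121 (0.0263 to 0.254), and C4b had 3 and 89 UMIs. Of the 204 C3 UMIs, 63 lay in a single cell. Comp, the cartilage oligomeric matrix protein, had 8 UMIs in 3 slie/slie and 284 UMIs in 36 control members, a ratio of 0.157 (0.0600 to 0.280). Of the 284 UMIs, 61, 53 and 53 lay in single cells. Acan, the proteoglycan aggrecan, had a ratio of 0.421 (0.223 to 0.663), which was -0.59 on the log2 scale and no longer past 2-fold without the deepest cells. Sox9, the transcription factor of cartilage precursors, was at 147 CPM in slie/slie and 134 CPM in control members, a ratio of 1.13 (0.674 to 1.72). Leukocyte-gated barcodes held no Comp or Acan UMI in either library.

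Immediate early genes, which respond within minutes to growth factors, stress and tissue dissociation, were in part at or near 0 in the slie/slie members. Fos had 0 UMIs in slie/slie and 70 UMIs in 27 control members and was at least 4.69-fold lower, Klf2 at least 4.95-fold and Dusp1 at least 3.82-fold. Egr1 had 1 UMI in slie/slie and 76 in control members, a ratio of 0.129 (0.00164 to 0.376). Not all of the list moved: 6 of 15 measured genes fell, 1 rose, and Jun was at 214 CPM in slie/slie and 273 CPM in control members. Fos was more abundant in leukocyte-gated barcodes, at 404 CPM in slie/slie and 649 CPM in control.

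Contractile genes included some that were higher in slie/slie members, with 4 of 18 measured genes up, none down and a median log2 ratio of 0.47. Myl9 was at 746 CPM in slie/slie and 257 CPM in control members, a ratio of 2.92 (2.31 to 3.65) whose log2 value was 1.54, 1.09 without the deepest cell of each population and 0.73, no longer past 2-fold, without the 3 deepest. Acta2 was at 1791 CPM in slie/slie and 806 CPM in control members, a ratio of 2.23 (1.93 to 2.56), but 185 of its 293 slie/slie UMIs lay in the deepest cell and its log2 value of 1.16 was 0.83 without it. For Tagln 202 of 253 UMIs lay in that cell, and its log2 ratio of 1.16 turned to -0.22 without it. Ctgf, a target of YAP and TAZ, turned in the same way, with a log2 ratio of 1.58 in the sums and -1.80 without that cell. Per cell, Acta2 was found in 7 of 15 slie/slie and 24 of 94 control members at 1000 UMIs (46.7%, 21.3 to 73.4%, and 25.5%, 17.1 to 35.6%), and these intervals overlapped.

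Other genes stayed past 2-fold without the deepest cell of each library. Myo1c, a membrane-linked myosin, had 47 UMIs in 7 slie/slie and 38 UMIs in 29 control members, a ratio of 6.13 (3.93 to 9.70). Cxcl1, a neutrophil chemokine, had a ratio of 2.67 (1.71 to 4.0), and Ctsc, a lysosomal protease that activates granule enzymes of leukocytes, 3.10 (1.98 to 4.70). The monocyte chemokine Ccl2 was lower, at 85.6 CPM in slie/slie and 419 CPM in control members (ratio 0.218, 0.111 to 0.348). The log2 ratios without the deepest cell were 3.44 for Myo1c, 2.25 for Cxcl1, 2.32 for Ctsc and -1.56 for Ccl2, and that of Ccl2 was -0.31 without the 3 deepest.

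Fibrillar collagens and the enzymes that fold and crosslink collagen did not pass 2-fold in either direction between genotypes. Col5a1 was at 1962 CPM in slie/slie and 1908 CPM in control members (ratio 1.03, 0.909 to 1.16), Col12a1 had a ratio of 1.01 (0.873 to 1.16) and Postn of 1.19 (1.11 to 1.28). None of the 5 fibrillar collagen genes measured, none of 21 folding and crosslinking genes and 1 of 20 matricellular genes passed 2-fold, the last being Mfap4, a microfibril protein, at 1577 CPM in slie/slie and 698 CPM in control members. Of 10 other collagens measured 3 fell, namely Col4a1 and Col4a2 of basement membranes and the fibril-associated Col14a1, and of 6 small leucine-rich proteoglycans 1 fell, Prelp, with 2 UMIs in slie/slie and 50 in control members. These lists leave out the genes that chose the members, whose values are a description. Among them Dcn, also a small leucine-rich proteoglycan, was at 1748 CPM in slie/slie and 3637 CPM in control members, and Col3a1 at 9403 and 16084 CPM. Col4a1 had 5 UMIs in slie/slie and 165 in control members, a ratio of 0.180 (0.0484 to 0.359). Col14a1 had a ratio of 0.415 (0.297 to 0.547), with a log2 value of -1.27 that was 0.10 with cells weighted equally, and the log2 ratio of Col4a2, -1.16, was -0.32 without the deepest cell of each population. None of 36 nuclear oxidative phosphorylation genes passed it either. Without the deepest cells the log2 ratio of Col5a1 was 0.54 and that of Col12a1 0.61.

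Since Prg4 was found in 42 of the control members and in no slie/slie member, the control was also described in 2 parts. This split uses Prg4 itself and the parts differ in depth, with a median of 6710 UMIs in cells with Prg4 and 1645 in the 84 without, so it is a description with no test. Slpi was at 141 CPM in slie/slie members, 2092 CPM in control members with Prg4 and 280 CPM in those without. Tnfaip6 was at 79.5 CPM in slie/slie members, 837 CPM in control members with Prg4 and 131 CPM in those without, and Comp at 48.9, 553 and 101 CPM in the same order. In the control members with Prg4 these sums leaned on few cells. Single cells held 266, 187 and 142 of the 935 Slpi UMIs there. They held 139 and 108 of the 374 Tnfaip6 UMIs, and 61, 53 and 53 of the 247 Comp UMIs. The contractile genes looked at in this split, Acta2, Tagln and Myl9, ran the other way. Acta2 was at 1791 CPM in slie/slie members, 336 CPM in control members with Prg4 and 1378 CPM in those without. Tagln was at 1547, 295 and 1182 CPM in the same order, and Myl9 at 746, 183 and 346 CPM. Single cells held 185 of the 293 Acta2 UMIs in slie/slie, and 198 and 112 of the 506 in control members without Prg4.

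Against control members without Prg4, added as an alternative after the data were seen, part of the genotype differences was smaller. The log2 ratio of Slpi was then -0.95, that of Tnfaip6 -0.64, that of Comp -0.91 and that of Acta2 0.38, none past 2-fold. Mmp3 at -3.15, Spp1 at -3.05, C3 at -2.10, Col4a1 at -2.0, Col14a1 at -1.24, Has2 at -1.08 and Myl9 at 1.11 stayed past it. The median of the complement list was then 0.009. In that comparison 7.76% of genes passed 2-fold, against 9.44% with all control members.

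**Figure D3:**
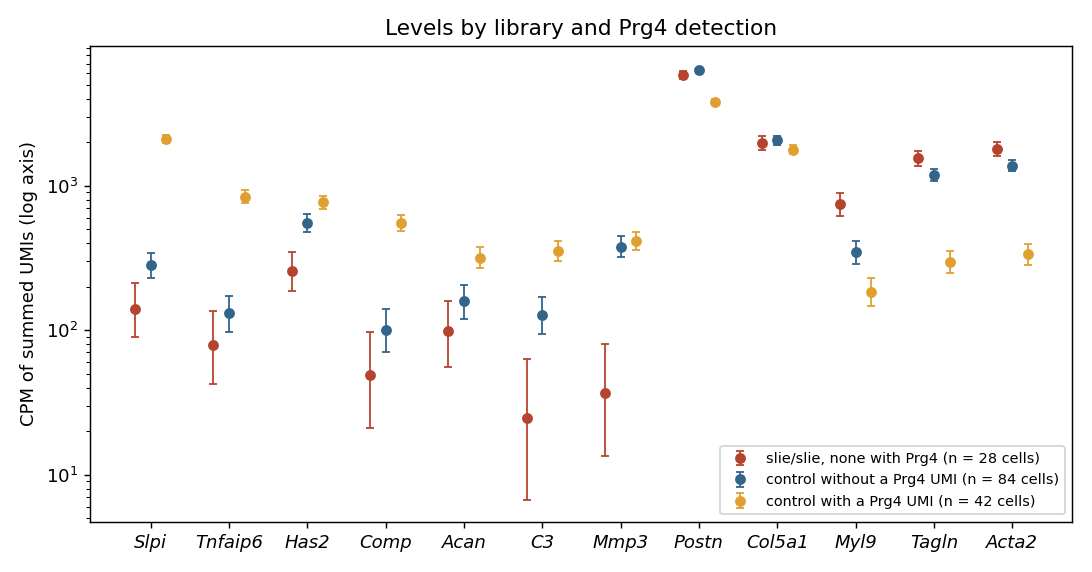
CPM of summed UMIs with exact Poisson intervals at 95%, on a logarithmic axis, in slie/slie members, control members without a Prg4 UMI and control members with one. Slpi, Tnfaip6 and Comp are highest in the control members with Prg4, at 2092, 837 and 553 CPM, and Acta2, at 336 CPM there, is lowest in them. The intervals do not show the spread between cells, and few cells held much of the Slpi, Tnfaip6 and Comp sums there.

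The members were next set against the barcodes of the same libraries that passed every gate but held under 0.5% mitochondrial UMIs. There were 37 of these in slie/slie (35345 UMIs, median 551) and 40 in control (54398 UMIs, median 768.5), shallower than the members. In slie/slie 18.5% of 563 measured genes passed 2-fold, 14.6% higher and 3.91% lower in the members, and in control 18.6% of 2623, 9.15% higher and 9.49% lower. In control the median over all genes was -0.23 on the log2 scale, and with that median set to 0 the 240 higher and 249 lower genes became 340 higher and 133 lower. Erythroid genes stood at 416 CPM in the members and 11176 CPM in the low-mitochondrial barcodes of slie/slie, and at 436 CPM and 1379 CPM in control. Neutrophil markers stood at 36.7 CPM in members and 226 CPM in low-mitochondrial barcodes of slie/slie, and at 157 CPM and 441 CPM in control. What part this RNA has in the results was not tested.

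Some matrix genes were higher in the members of both genotypes. The collagen and Dcn share, a gate of both populations, was larger in the members too. Its median was 6.99% in members and 2.12% in low-mitochondrial barcodes of slie/slie, and 6.61% and 2.47% in control. How far the ratios below follow this general difference was not tested. Fbn1, the microfibril protein fibrillin 1, had a ratio of 6.45 (3.24 to 24.0) in slie/slie and 4.82 (2.97 to 10.1) in control. Col5a1 had ratios of 3.87 (2.51 to 7.09) and 5.19 (3.49 to 9.10), Col12a1 of 3.70 and 4.16, and Col6a1, a collagen of the pericellular matrix, of 3.18 and 3.63. Postn was at 5845 CPM in members and 1924 CPM in low-mitochondrial barcodes of slie/slie, and at 4912 CPM and 2408 CPM in control. Itgb1, the shared beta subunit of collagen-binding integrins, had ratios of 2.63 and 3.22, and the Wnt inhibitor Sfrp1 of 3.05 and 3.19. Of 20 matricellular genes, 8 of 14 measured in slie/slie and 9 of 20 in control rose, and none fell. In slie/slie 3 of 4 measured fibrillar collagens, 6 of 6 other collagens, 1 of 11 folding and crosslinking genes and 2 of 4 small leucine-rich proteoglycans rose, and none fell. In control 4 of 5 fibrillar collagens, 5 of 10 other collagens, 7 of 21 folding and crosslinking genes and 0 of 6 proteoglycans rose. Col27a1, Col4a1, Col4a2 and Fkbp14, a collagen-folding isomerase, fell there, and the log2 ratio of Col4a2, -1.20, was 0.38 without the 3 deepest cells of each population.

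Pdgfra, which helped to check the label, had 31 UMIs in members and 1 in low-mitochondrial barcodes of slie/slie, a ratio of 3.46 (1.12 to 273), and in control 185 UMIs in members and 0 in low-mitochondrial barcodes, at least 4.12-fold higher. Hspa5, the chaperone BiP of the endoplasmic reticulum, was 2.07-fold higher in slie/slie and 2.43-fold in control, with a log2 ratio of 0.61 without the deepest cells in slie/slie. No contractile gene passed 2-fold, of 11 measured in slie/slie and 18 in control. In control, Tnfaip6 (422 UMIs in members, 0 in low-mitochondrial barcodes) was at least 9.40-fold and Acan at least 4.45-fold higher, and Has2 was 6.08-fold higher (3.10 to 22.5). Genes lower in the members included Slpi at a ratio of 0.144 (0.0801 to 0.247) and Timp1, a protease inhibitor, at 0.448 in slie/slie, and Mgp, matrix Gla protein, at 0.135 (0.113 to 0.161) in control. The log2 ratio of Mgp was -2.89, and -0.44 without the 3 deepest cells of each population.

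Of 455 genes measured in both libraries, 31 were higher in the members of both and 1, Clic1, an intracellular chloride channel protein, was lower in both. The UMI limit favours genes high in the members, so these counts too describe only the genes measured. Without the 3 deepest cells of each population 25 of the 31 stayed at least 2-fold higher in slie/slie and 29 in control. In slie/slie 1 turned, Ctgf, with a log2 ratio of 2.18 in the sums and -1.26 without the deepest cell. A single gene passed 2-fold in opposite directions: C1qtnf3, a secreted collagen-domain protein, had log2 ratios of -1.01 in slie/slie and 1.90 in control. The slie/slie value was 0.07 without the 3 deepest cells.

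**Figure D4:**
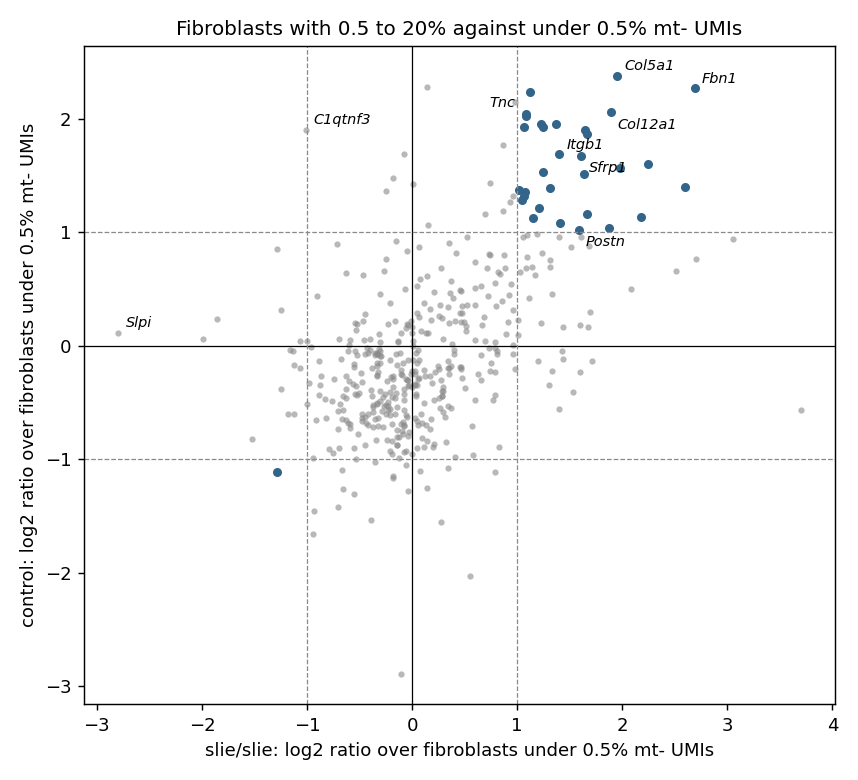
Log2 ratio of members to low-mitochondrial barcodes in slie/slie and in control for the 455 genes measured in both, 1 point per gene. Blue points passed 2-fold in the same direction in both libraries, and 31 of them, such as Fbn1 at 2.69 in slie/slie and 2.27 in control, lie on the higher side.

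In the control library the members could also be compared with 29 cycling fibroblasts (383919 UMIs, median 6698), which passed every other gate. Of 3607 measured genes 14.1% passed 2-fold: 7.18% were higher in the members and 6.96% lower, the median over all genes was -0.15 on the log2 scale, and with it set to 0 the 259 higher and 251 lower genes became 343 and 175. The slie/slie library held 8 such cells and was not compared. Genes of the cell cycle are lower in the members by the choice of cells and their values are a description: 8 of 9 measured genes outside the rule fell, among them Cdk1, the mitotic kinase, with 11 UMIs in members and 132 in cycling cells.

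Complement and insulin-like growth factor genes were higher in the members. All 5 measured complement genes rose, with C3 at 19.3-fold (9.25 to 89.1) and C1ra at 5.13-fold (2.79 to 13.6). Igf1 was at 1092 CPM in members and 172 CPM in cycling cells, 6.26-fold higher (4.94 to 8.28), Igfbp5 was 15.2-fold and Igfbp4 4.60-fold higher, and 5 of 7 measured genes of the list rose. Comp had 284 UMIs in members, with 61, 53 and 53 in single cells, and 1 in cycling cells, a ratio of 67.2 (23.8 to 5.31e3). Clec3b and Eln (elastin) were at 0 in cycling cells and at least 20.3-fold and 10.8-fold higher in the members, and Gas6, a ligand of the TAM receptors, was 21.8-fold higher (12.3 to 57.2). Clec3b had 80 UMIs in 7 members with a Prg4 UMI and 49 UMIs in 8 members without one. A single cell held 69 of these Clec3b UMIs and also 63 of the members' C3 UMIs.

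Of 18 measured contractile genes 3 were lower in the non-cycling members and none higher, with a median log2 ratio of -0.42. Acta2 was at 806 CPM in members and 2011 CPM in cycling cells, a ratio of 0.401 (0.360 to 0.445), Actg1 had a ratio of 0.408, and Cnn2 one of 0.497. Crabp1, a retinoic acid binding protein, had a ratio of 0.0800 (0.0599 to 0.103). Prg4 was lower in the members in the sums, at 756 CPM against 3631 CPM in cycling cells, but 1270 of the 1394 UMIs of the cycling cells lay in 1 cell and the log2 ratio of -2.26 turned to 1.00 without the deepest cells. Timp1 had a ratio of 0.358, and a log2 ratio of -0.07 without them.

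Clustering the 154 members by themselves gave 3 groups of 71, 46 and 37 cells, which differed in depth, with medians of 1166, 4344.5 and 14084 UMIs. Their leading genes were S100a9 and Rnf150 in the first, Comp, Acan and Prg4 in the second, and Gsn, Tnfaip6, Ctgf and Tagln in the third, given as a description because the clusters were made from these genes. Each held cells of both genotypes, with 10, 10 and 8 slie/slie and 61, 36 and 29 control members.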

How the data were processed

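Tissue was digested with collagenase and dispase, per the labels' protocols. The authors deposited unnormalized UMI counts. Per the file headers these come from Cell Ranger 5.0.1, and the submitters' processing notes name mm10. For chemistry and annotation, none is given in the sources used here. Among members, the smallest cells held 358 UMIs in slie/slie and 501 in control.

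UMIs were summed per population, and ratios formed after adding 1 count, with exact conditional binomial intervals for ratios, exact Poisson intervals for CPM and Clopper-Pearson intervals for shares. A gene needed 50 UMIs over both populations, a call 2-fold, and a population 10 cells. The code was tested on simulated data. Members and the 30 gene lists were chosen with earlier results of these data known. Named genes were the 12 highest and 12 lowest by the interval bound nearest 1, of the same direction with cells weighted equally and without the 3 deepest cells, leaving out mitochondrial, ribosomal, hemoglobin, predicted, Xist, Y-linked and gating genes. Each list added its 4 genes with the most UMIs and those past 2-fold, and Ddr2 and the markers were always named. C1qtnf3, and Clic1 in control, were named after their values were seen. Scrublet marked 1 of 251 slie/slie and 1 of 766 control injured barcodes, neither a member, so doublets were in effect not removed. Members were clustered on 1000 variable genes and 20 components at resolution 0.5. Computation used scanpy 1.11.5 with leidenalg 0.10.2, and numpy 2.4.6, pandas 2.3.3, scipy 1.17.1 and matplotlib 3.10.9 under Python 3.11.15. Alternatives comprised 14 planned settings and 2 added after the data were seen.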

Additional observations from a re-analysis of the deposited data

Results flagged for a closer look

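C1qtnf3 passed 2-fold in opposite directions in the 2 genotypes: its log2 ratio of members to low-mitochondrial barcodes was -1.01 in slie/slie, with 61 UMIs in members and 26 in low-mitochondrial barcodes, and 1.90 in control, with 279 and 4. The difference between the genotypes was not tested.

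Prg4 had 122 UMIs in the 8 cycling fibroblasts of the slie/slie injured library, a population too small to be compared, while the 28 non-cycling members of that library held none.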

How the results depend on the processing

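No paired analysis was possible because each group had 1 library. Over 195 named genes and 63 list medians, 2462 gene values stayed within the counting interval of the reported value and 841 medians within 1.5 times of it, 346 and 59 moved further, and 30 and 1 that were past 2-fold turned in sign. The share of genes past 2-fold in slie/slie against control, 9.44%, was 15.1% with at least 20 UMIs, 14.5% without the 3 deepest cells and 33.7% with cells weighted equally. In low-mitochondrial comparisons it was 28.1% without the 3 deepest cells, 29.0% with equal cells and 30.2% thinned in slie/slie, and 34.1% with equal cells and 37.6% thinned in control. Against cycling cells it was 25.0% with equal cells. A 1.5-fold limit gave 29.8% (slie/slie against control), 50.3% (injury), 35.9% and 44.3% (low-mitochondrial, slie/slie and control) and 39.5% (cycling). Resolution 1 gave 5 clusters.

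Log2 ratios that turned between genotypes were Tagln (-0.72 without the 3 deepest cells, -0.16 at 1% or more mitochondrial UMIs, -0.22 without the deepest cell), Ctgf (-2.16, -2.05 and -1.80 under the same settings, -0.17 with equal cells, -0.86 thinned), Ankrd1 (-0.71 at 1% or more, -0.0687 without the deepest cell), Htra1 and Col14a1 (0.10 each with equal cells), Col4a2 (0.215 with equal cells, 0.255 thinned), Has2 (0.68 thinned) and Thbs4 (0.33 thinned). In the injury contrast the folding list median was -0.32 and Actg1 -0.074 thinned, and Col4a2 0.125 with equal cells. Against low-mitochondrial barcodes C1qtnf3 in slie/slie was 0.0661 without the 3 deepest cells of each population, and Ctgf there -1.42 without these, -1.26 without the deepest and -0.779 with equal cells. In control Col4a2 was 0.378 without the 3 deepest, 0.488 with equal cells and 0.538 thinned, Col4a1 0.0845 thinned and Col27a1 0.178 with at least 500 genes per cell. Prg4 against cycling cells was 0.46 without the 3 deepest, 0.54 at 1% or more and 1.00 without the deepest cell. The deepest cell held 47.0% and the 3 deepest 65.8% of the slie/slie members' UMIs, and the cause of these changes was not tested. With 28 slie/slie members of 1132.5 UMIs in the median, a gene at 0 there may lie below detection.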
